A study of Homo sapiens with 6 samples.

Results

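The data of 10 genes of the insulin and insulin-like growth factor (IGF) system are described in EndoC-βH1, an insulin-secreting line of human pancreatic beta cells. They are 6 IGF binding proteins (IGFBP2 to IGFBP7), 3 receptors (IGF1R, IGF2R and INSR) and the receptor substrate IRS2. These 10 genes were taken by symbol from a table of 26485 gene symbols, and all 10 passed the filter on low counts that left 16199 genes. They were chosen with the comparison of the 2 groups already known, so their differences between groups are given as a description, with standard errors and no p-value. RNA was sequenced in bulk from 6 cultures, and every one of them, controls included, carried the Cas9 vector lentiCRISPRv2 and had been through antibiotic selection as a stable line. The 3 Empty libraries (genotype label WT) had the vector alone. The 3 sgZHX3-3 libraries (genotype label ZHX3 KO) had it with 1 guide RNA that targets ZHX3, a repressor of transcription with zinc fingers and homeodomains, in its first coding exon. The sources used here do not give whether a line is 1 clone, or whether its numbered replicates were transduced separately or only cultured separately. If only cultured so, the standard deviations (SD), standard errors and p-values cover culture-to-culture spread alone. With 1 guide, loss of ZHX3 and any other action of the guide cannot be told apart.

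IGF1 and IGF2 are growth factors related to insulin. They act through the IGF1 receptor and, less tightly or in some splice forms, the insulin receptor, which are tyrosine kinases that phosphorylate docking proteins of the IRS family and so switch on the PI3K-AKT pathway. The binding proteins are secreted and hold most of the extracellular IGF, so they lengthen its life and limit its access to receptors until proteases cut them. IGF2R, the cation-independent mannose 6-phosphate receptor, has no kinase; it carries lysosomal enzymes and takes IGF2 to lysosomes. In beta cells insulin and IGF signals through IRS2 are known for their part in growth and survival of the cells.

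The libraries held 45101454 to 61051884 counts, and values are given as CPM (counts scaled to a common library size) after scaling by the trimmed mean of M-values (TMM). The RNA of ZHX3 was higher in the libraries labelled sgZHX3-3, at 177 ± 8.62 CPM, than in Empty, at 105 ± 4.19 CPM (SD, n = 3 each). The level of the RNA alone does not show whether the gene was edited. Every direction below therefore rests on the labels, and sgZHX3-3 stands for the libraries labelled so. Exons of ZHX3 overlap those of PLCG1 on the other strand, so its count is uncertain, and the edit and the protein were not analysed here. The summed level of 10 beta cell markers was 30698 to 38650 CPM in Empty and 35607 to 43746 CPM in sgZHX3-3, and 6 of the 10 were called higher. Most of this sum was CHGA (means of 25395 CPM in Empty and 29815 CPM in sgZHX3-3), and most of the rest was INS. Neither was among the 6 called, so the sum does not describe those genes. The fibroblast list, whose cells make many IGF binding proteins, summed to 6.17 to 6.90 CPM in Empty and 6.62 to 8.78 CPM in sgZHX3-3 over 10 genes. COL1A1 made up most of it, with means of 5.68 CPM in Empty and 6.42 CPM in sgZHX3-3. The endothelial list of 6 genes summed to 0.0428 to 0.0611 CPM and 0 to 0.0802 CPM, with CDH5, KDR and PLVAP without a count in any library. A list of 10 oxidative and heat stress genes stood at 1098, 1914 and 2165 CPM in Empty 1, 2 and 3. In sgZHX3-3 it stood at 723 to 815 CPM, with 7 of 10 called lower. Beside these counts of called markers, 7.11% of all tested genes were called higher and 4.98% lower. By the stress list Empty 2 and 3 stood apart from Empty 1, and values without both are given beside most results. Neither group was even by the mean chi-square per gene over the tested genes. It was 3.63 between Empty 2 and 3 but 22.5 to 23.6 from Empty 1 to them. It was 4.64 between sgZHX3-3 libraries 1 and 2 but 13.0 to 21.4 from library 3 to them. From Empty 1 to sgZHX3-3 library 1 it was 19.1, below its value to either other Empty library. This measure grows with the counts of a gene and the depth of the libraries, which differed. Its values are therefore not distances on one scale. In bulk RNA, fewer cells of a type and less RNA per cell cannot be told apart.

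Promoter letters are shown for 3 genes: those with the largest difference downward and upward among the 10, and the substrate IRS2. RefSeq (GRCh38.p14) gave an entry for 9 of the 10 genes. Each line holds the 250 bases before the RefSeq start, 5′ to 3′ on the gene's strand. The IGFBP3 window lies inside the GENCODE 29 span of the gene, whose start is farther upstream than the RefSeq start. Capitals mark GGGCGG or its complement CCGCCC (GC box) in IGFBP3, TCACGTGA (an extended E-box, its own complement) in IGF2R, and CCAAT or its complement ATTGG in IRS2.
IGFBP3, chr7:45921273-45921522, minus strand: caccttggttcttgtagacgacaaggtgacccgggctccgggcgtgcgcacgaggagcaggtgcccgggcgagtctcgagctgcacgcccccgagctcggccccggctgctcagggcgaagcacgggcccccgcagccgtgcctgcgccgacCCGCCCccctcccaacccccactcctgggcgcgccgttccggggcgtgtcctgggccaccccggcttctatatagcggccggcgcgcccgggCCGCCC
IGF2R, chr6:159968832-159969081, plus strand: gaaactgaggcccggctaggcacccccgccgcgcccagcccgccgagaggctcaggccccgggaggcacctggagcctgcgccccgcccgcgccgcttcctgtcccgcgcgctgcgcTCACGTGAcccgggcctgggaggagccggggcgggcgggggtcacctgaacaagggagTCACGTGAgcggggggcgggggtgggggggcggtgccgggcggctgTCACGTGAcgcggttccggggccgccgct
IRS2, chr13:109786584-109786833, minus strand: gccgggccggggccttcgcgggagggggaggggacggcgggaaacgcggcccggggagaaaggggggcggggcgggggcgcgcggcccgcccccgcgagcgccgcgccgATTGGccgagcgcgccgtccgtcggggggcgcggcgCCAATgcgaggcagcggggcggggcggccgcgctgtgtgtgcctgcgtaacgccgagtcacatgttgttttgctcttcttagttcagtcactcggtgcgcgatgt

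The IGF2R window held TCACGTGA at 3 places. At least 1 such match lay in 0.854% of 35116 windows of the same length, and 3 or more in 4 of them, the IGF2R window included. The IRS2 window held 2 CCAAT letters, counting both strands, which are the letters bound by NF-Y, a factor that ZHX proteins are known to bind. No other member had this motif at its first listed start, and 32.0% of all windows held it at least 1 time. The IGFBP3 window held 2 GC boxes, against 6 in IGF2R (left in lower case), 5 in IRS2, 4 in INSR and 2 in IGF1R; 42.6% of all windows held at least 1. Of the 3 printed windows GC made up 76.0%, 79.2% and 76.4%, against a median of 58% over all windows. The motifs were picked with knowledge of the factors and, for TCACGTGA, after seeing the sequence, and a match is a run of letters and not a shown binding site.

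By the model fitted to all genes (edgeR, adjusted p below 0.05), 1151 of 16199 genes (7.11%) were higher and 807 (4.98%) lower in sgZHX3-3, together 12.1%. Scaled by library totals alone, without TMM, 904 were higher and 1272 lower. Of the 10 genes here 4 were called higher (IGFBP4, IGFBP5, IGF1R and IGF2R) and 1 lower (IGFBP3), and 5 were not called. The same 5 were those whose groups did not overlap in CPM, as was so for 32.0% of all tested genes. The median log2 fold change of the 10 was 0.15, beside −0.0020 over all tested genes. The count of 4 fell to 3 with the gene span trend removed (IGF1R lost), to 2 without Empty 2 (IGFBP4 and IGFBP5 lost) or Empty 3 (IGFBP4 and IGF1R lost), and to 1, IGF2R, without sgZHX3-3 library 2, with the replicate number as a block or with Empty 2 and 3 left out. Since the choice of genes used this contrast, nothing is read from these calls and shares. Where a result is given for another setting or with libraries left out, the value is a log2 fold change.

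**Figure D1:**
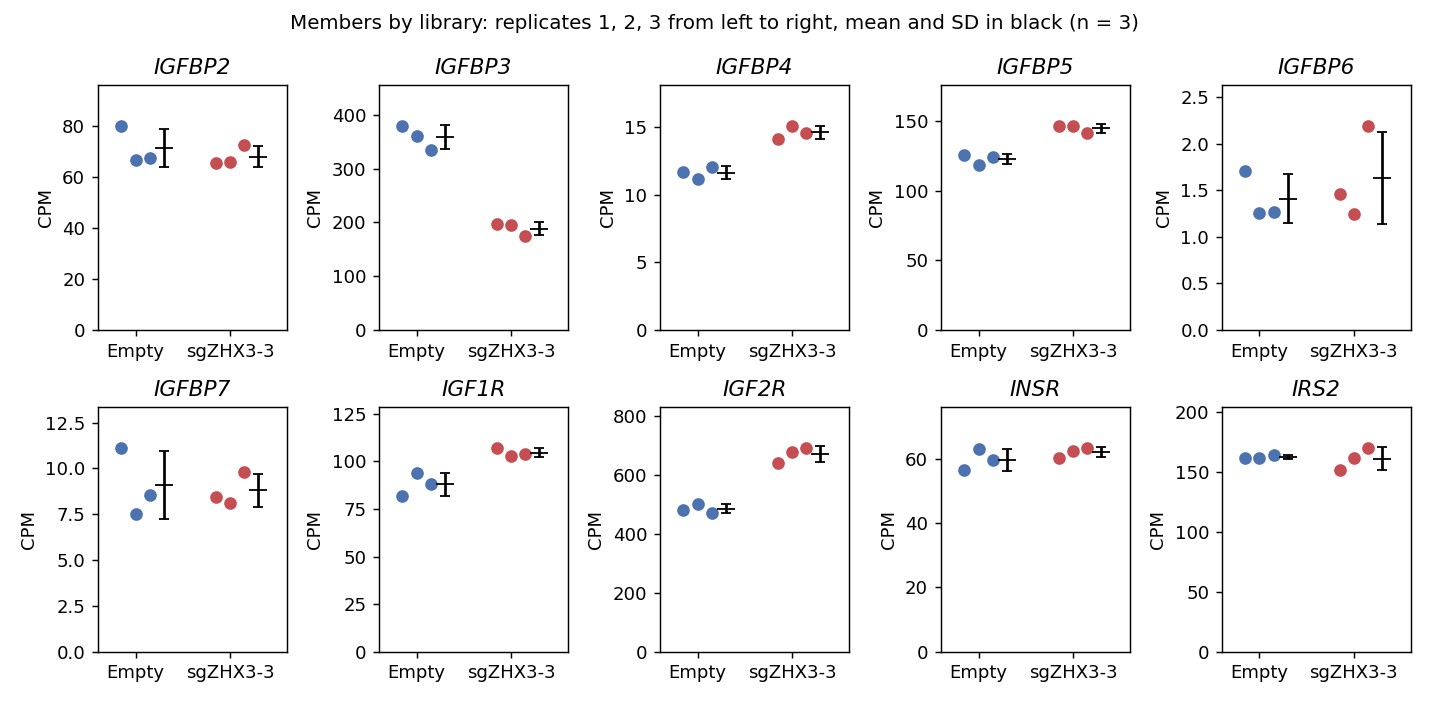
CPM (y axis, from 0) of each gene in each library; blue points are Empty and red points sgZHX3-3, with replicates 1, 2 and 3 from left to right and the mean and SD (n = 3) in black. IGFBP3 lies lower in all 3 sgZHX3-3 libraries, IGFBP4, IGFBP5, IGF1R and IGF2R lie higher in all 3, and the groups overlap for the other 5 genes.

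IGFBP3, the main IGF carrier of blood and a secreted inhibitor of growth in many cell types, was the binding protein with the largest difference. Its gene occupies chromosome 7, 45912245 to 45921874, minus strand (GRCh38). Its level was 379.6, 361 and 335 CPM in Empty 1, 2 and 3. In sgZHX3-3 libraries 1, 2 and 3 it was 197, 194 and 174 CPM. Every sgZHX3-3 library lay far below every Empty library, and the gap between the groups was larger than the spread within either. Means were 358 ± 22.3 CPM and 188 ± 12.5 CPM (SD, n = 3 each), a log2 fold change of −0.93 (standard error 0.0633), which is 1.90-fold lower. Its rank was 88 from the lowest among the 16199 fold changes. With Empty 2 and 3 left out it was −1.01. The stress sum of the remaining Empty 1 was still above that of every sgZHX3-3 library, and the part of the stress genes in this value was not tested. Over the 15 other settings it lay between −1.01 and −0.87.

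The nearest IGF binding protein gene to IGFBP3 is IGFBP1, which lies 18.6 kb away on the opposite strand and ends facing it. IGFBP1 is known as the binding protein that insulin represses in liver. Its level was low, at 1.29 ± 0.239 CPM in Empty and 0.816 ± 0.0674 CPM in sgZHX3-3 (SD, n = 3 each), and the groups did not overlap. The log2 fold change was −0.65 (standard error 0.215) and did not pass (edgeR adjusted p = 0.0663, and from 0.0498 to 0.158 over the other settings). The only setting in which it passed was scaling by library totals alone. With Empty 2 and 3 left out it was at −0.93.

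IGFBP5 and IGFBP4 were both higher in sgZHX3-3, by a smaller amount than IGFBP3 was lower. IGFBP5, which binds to matrix as well as to IGFs, was at 126, 119 and 124 CPM in Empty 1, 2 and 3 and at 147, 147 and 141 CPM in sgZHX3-3. The log2 fold change was 0.24 (standard error 0.0511), or 1.18-fold. IGFBP4, a binding protein known mainly to hold back IGF action until the protease PAPP-A cuts it, was at 11.7, 11.2 and 12.1 CPM in Empty and at 14.1, 15.1 and 14.6 CPM in sgZHX3-3. Its log2 fold change was 0.33 (standard error 0.0777), or 1.26-fold. For both genes the replicates of a group lay close together, with coefficients of variation from 2.11% to 3.89%. Over the 15 other settings IGFBP5 lay between 0.20 and 0.27 and IGFBP4 between 0.29 and 0.36, and with Empty 2 and 3 both left out they were at 0.21 and 0.33.

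IGFBP5 (chromosome 2, 216672105 to 216695525, minus strand) has IGFBP2 (216632828 to 216664436, plus strand) as its neighbour, 7.7 kb away. IGFBP2, a binding protein with a preference for IGF2, was at 80.1, 66.7 and 67.6 CPM in Empty 1, 2 and 3. In sgZHX3-3 it was at 65.4, 65.9 and 72.6 CPM, so that the groups overlapped. Its log2 fold change was −0.07 (standard error 0.0746), and 0.02 without Empty 1. Whether the neighbours differ from each other was not tested.

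IGFBP6 and IGFBP7 had the lowest CPM of the 10, a scale not corrected for length, and the groups overlapped for both. IGFBP7, which binds IGFs weakly and is also known to bind insulin, was at 11.1, 7.54 and 8.53 CPM in Empty and at 8.46, 8.12 and 9.82 CPM in sgZHX3-3. Its log2 fold change was −0.04 (standard error 0.135). Exons of IGFBP7 overlap those of the antisense gene IGFBP7-AS1 and of POLR2B on the other strand, and the sources used here give no strand setting for the counts, which makes this one uncertain. IGFBP6, which prefers IGF2 strongly, had only 62 to 132 counts in a library. It was at 1.71, 1.25 and 1.26 CPM in Empty and at 1.45, 1.24 and 2.19 CPM in sgZHX3-3, with a log2 fold change of 0.23 and a standard error of 0.232. The sign of both genes turned with single libraries: IGFBP7 was at 0.14 without Empty 1 and 0.02 without sgZHX3-3 library 2, and IGFBP6 at −0.06 without sgZHX3-3 library 3. With Empty 2 and 3 left out IGFBP2 was at −0.23, IGFBP7 at −0.33 and IGFBP6 at −0.05.

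IGFBP2, IGFBP6 and IGFBP7 shared a pattern between replicates that crossed the groups. In each of the 3 genes Empty 1 was the highest Empty library and sgZHX3-3 library 3 the highest of its group. Relative to each gene's mean over the 6 libraries, Empty 1 lay at 0.20, 0.20 and 0.33 log2 units and sgZHX3-3 library 3 at 0.06, 0.56 and 0.15. In Empty these 3 genes had the widest spread among the 6 binding proteins, with coefficients of variation of 10.5%, 18.6% and 20.5%. In sgZHX3-3 the coefficients were 5.94%, 30.5% and 10.3%, and IGFBP2 was there less spread than IGFBP3 (6.63%). Across all tested genes the deviations of Empty 1 and sgZHX3-3 library 3 from their group means had a correlation of 0.22, the highest among the 9 pairs of libraries across the groups. The same 2 libraries were the highest of their groups for all the beta cell markers listed other than ABCC8, SLC30A8 and G6PC2. INS and CHGA were among those with this order. Genes within a library are not independent. The 3 binding protein genes and this pair of libraries were picked after their values were seen, and the pattern was not tested.

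IGF2R was higher in sgZHX3-3 by the largest amount among the 10 genes. Its gene occupies chromosome 6, 159969099 to 160113507, plus strand. Its level was 482, 503 and 473 CPM in Empty 1, 2 and 3, and 641, 678 and 694 CPM in sgZHX3-3. The lowest sgZHX3-3 library lay well above the highest Empty library. Means were 486 ± 15.3 CPM and 671 ± 27.1 CPM (SD, n = 3 each), a log2 fold change of 0.47 (standard error 0.0519), or 1.38-fold. Over the 15 other settings it lay between 0.43 and 0.497, and it was at 0.48 with Empty 2 and 3 left out.

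The receptor kinases IGF1R and INSR are close relatives, and the difference between their fold changes was not tested. IGF1R was at 81.9, 93.8 and 88.1 CPM in Empty 1, 2 and 3 and at 107, 103 and 104 CPM in sgZHX3-3, without overlap. The log2 fold change was 0.25 (standard error 0.0596), or 1.19-fold. INSR was at 56.4, 63.0 and 59.6 CPM in Empty and at 60.4, 62.6 and 63.6 CPM in sgZHX3-3, with overlap, a log2 fold change of 0.06 and a standard error of 0.0588. Both are long genes: IGF1R spans 315992 bases of chromosome 15 (98648539 to 98964530) and INSR 181780 bases of chromosome 19 (7112255 to 7294034). In this comparison long genes tended to higher values, and with that trend removed IGF1R was at 0.13, INSR at 0.0072 and IGF2R, which spans 144409 bases, at 0.44. With Empty 2 and 3 left out IGF1R was at 0.36 and INSR at 0.14. Per kilobase of exon the ratio of IGF1R to INSR was 1.09, 1.12 and 1.11 in the Empty libraries, against 1.33, 1.23 and 1.23 in the libraries with the guide. These receptors are known to form hybrids from a chain of each, but the ratio is of RNA only.

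IRS2, the docking protein best known from beta cells, differed least of the 10 genes. It was at 161 CPM in Empty 1, 161 in Empty 2 and 164 in Empty 3. In sgZHX3-3 it was at 151, 162 and 170.4 CPM, so the guide libraries lay on both sides of the Empty libraries. The log2 fold change was −0.01 (standard error 0.0551), and it lay between −0.05 and 0.03 over the 15 other settings. With Empty 2 and 3 left out it was −0.00078. The related substrate IRS1 was at 89.4 ± 5.42 CPM in Empty and 107 ± 11.8 CPM in sgZHX3-3 (SD, n = 3 each), without overlap. It was called higher, with a log2 fold change of 0.26 (standard error 0.0761, edgeR adjusted p = 0.0399, and from 0.0127 to 0.514 over the other settings). IRS1 was no longer called when Empty 2 (0.26) or Empty 3 (0.23) was left out, or both (0.17), nor when library 2 (0.29) or 3 (0.17) of sgZHX3-3 was. It was also lost with library totals alone (0.23) and with the replicate number as a block (0.26). Per kilobase of exon the ratio of IRS2 to IRS1 was 2.07, 2.24 and 2.38 in the Empty libraries, against 1.90, 1.90 and 1.73 in the libraries with the guide.

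**Figure D2:**
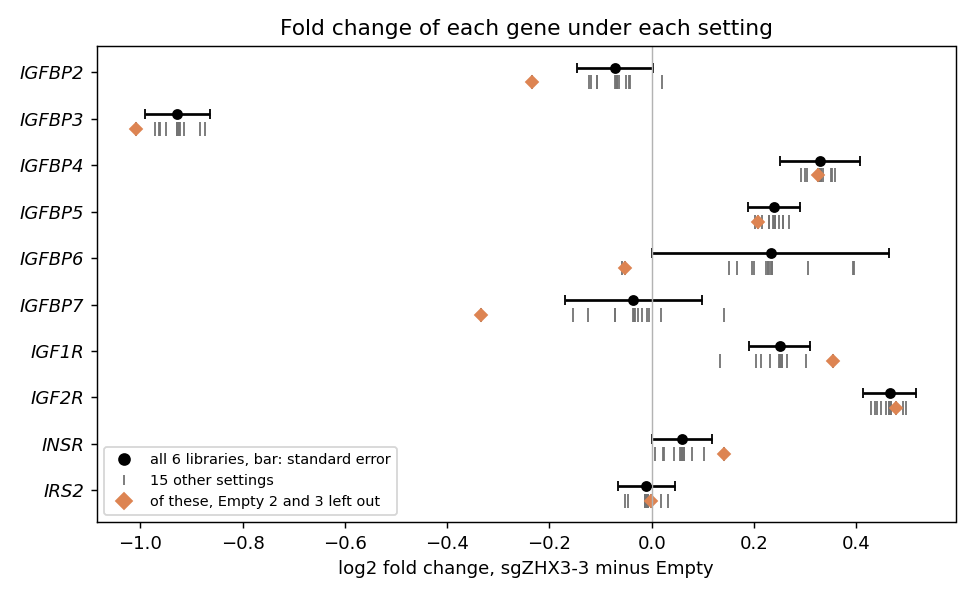
Log2 fold change (x axis, sgZHX3-3 minus Empty) of each gene; black points and bars are the value and standard error with all 6 libraries, grey ticks the 15 other settings and orange diamonds the setting with Empty 2 and 3 left out. IGFBP3 stays between −1.01 and −0.87 and IGF2R between 0.43 and 0.497, while the ticks of IGFBP2, IGFBP6, IGFBP7 and IRS2 fall on both sides of 0.

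Levels of different genes were compared per kilobase of exon (CPM per kb, with the joined exons of GENCODE 29 as length). IGFBP3 had the highest mean over the 6 libraries, at 59.8 CPM per kb, and ranged from 38.1 to 83.0. IGF2R came next at 32.4 (26.5 to 38.9 CPM per kb), and its range met that of IGFBP3: in sgZHX3-3 library 3 the level of IGF2R (38.9 CPM per kb) was above that of IGFBP3 (38.1 CPM per kb). IGFBP5 (20.8 CPM per kb) and IRS2 (19.9 CPM per kb) lay below IGF2R, and their ranges over the 6 libraries overlapped. Within each group they did not: IGFBP5 was below IRS2 in every Empty library and above it in every sgZHX3-3 library. The order in Empty depends on the length used, since with the longest transcript IGFBP5 was above IRS2 in Empty 1. IGFBP2 followed at 14.6 CPM per kb without overlap on either side. Of IGF1R (6.91 CPM per kb), IGFBP4 (5.96), INSR (5.83) and IGFBP7 (4.63), the range of each met that of the next among them. By this length IGF1R (from 5.87 CPM per kb) did not meet IGFBP7 (up to 5.77 CPM per kb). IGF1R was above IGFBP4 and INSR in every library. INSR was above IGFBP4 in every Empty library and below it in every sgZHX3-3 library. IGFBP6 was lowest, at 1.13 CPM per kb. With the longest transcript as length the order of the first 6 and of the last was the same, but IGFBP4 (5.96 CPM per kb) came below INSR (6.81) and IGFBP7 (6.26), and IGFBP3 at 113 CPM per kb no longer met the range of IGF2R. The length of IGFBP3 is 4571 bases by joined exons and 2412 by longest transcript, so its place relative to the others depends on that choice.

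**Figure D3:**
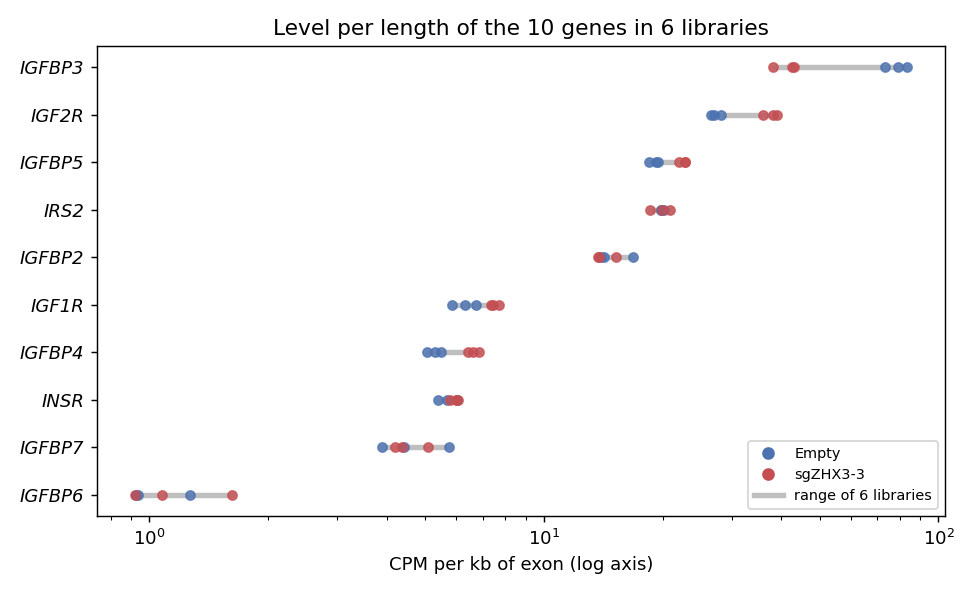
Level per length (x axis, CPM per kb of exon, log axis) of each gene in each library, ordered by the mean over 6 libraries; blue points are Empty, red points sgZHX3-3, and grey bars the range. IGFBP3 spans from 38.1 in sgZHX3-3 to 83.0 in Empty and meets the top of IGF2R at 38.9.

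The make-up of the pool of IGFBP2 to IGFBP7 RNA differed between the groups through IGFBP3 most. Per kilobase, IGFBP3 made up 63.1%, 65.1% and 62.3% of the summed level in the Empty libraries, against 47.1%, 46.7% and 43.0% in the libraries with the guide. The share of IGFBP5 was 15.5% ± 0.826 in Empty and 24.9% ± 0.116 in sgZHX3-3 (SD, n = 3 each). Shares add up to the whole, so a smaller share of IGFBP3 makes the others larger. All the other 5 had larger shares in sgZHX3-3. IGFBP2 was among them, at 12.1% ± 0.612 and 15.8% ± 1.22 (SD, n = 3 each), though its level overlapped between the groups. The summed level of the 6 genes was 124 ± 7.28 CPM per kb in Empty and 90.4 ± 1.55 CPM per kb in sgZHX3-3 (SD, n = 3 each). Without IGFBP3 the other 5 summed to 230.2, 206 and 214 CPM in Empty and 236, 237 and 241 CPM in sgZHX3-3, without overlap on this scale, but per kilobase the groups of this remainder overlapped. With the longest transcript as length the share of IGFBP3 was 75.3% in Empty and 59.6% in sgZHX3-3.

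**Figure D4:**
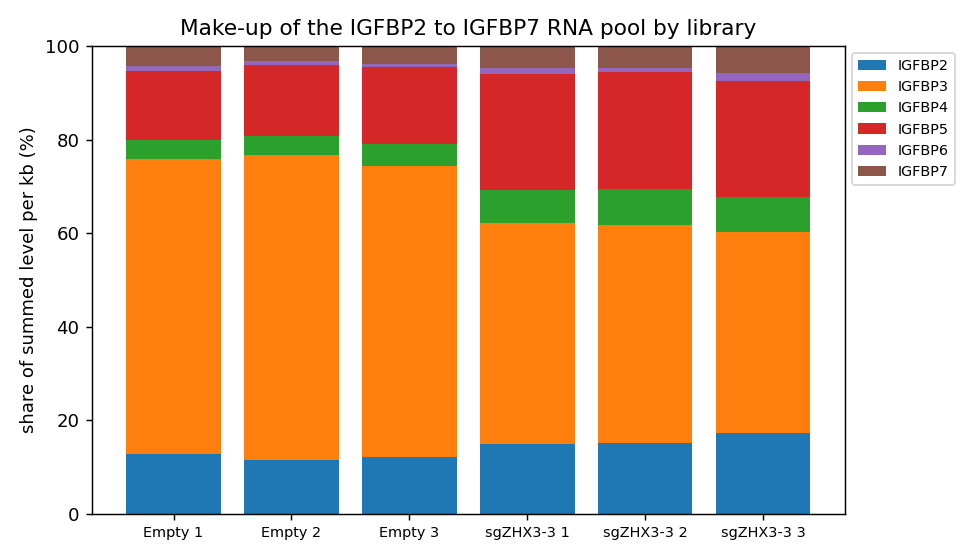
Stacked shares (y axis, % of the summed CPM per kb) of IGFBP2 to IGFBP7 in each library. The IGFBP3 share is 62.3% to 65.1% in the Empty libraries and 43.0% to 47.1% in the sgZHX3-3 libraries, and the shares of all the other genes are larger in the latter.

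The gene whose values ran closest to each member over the 6 libraries was found by the root-mean-square (RMS) distance of log2 CPM after each gene was centred on its own mean. For IGFBP3 it was MKRN9P, at 0.103 log2 units, where IGFBP3 itself lay 0.47 from a flat line. For IGF2R it was the kainate receptor subunit GRIK3, at 0.0228, with IGF2R at 0.24 from a flat line. For IGF1R it was PSD3, at 0.0200, with IGF1R at 0.14. For IGFBP5 and IGFBP4 they were the GABA transaminase ABAT (0.0217) and NUDT14 (0.0228). For the 5 members that were not called, the nearest genes were PELI3 (IGFBP2), EFNA2 (IGFBP6), KLHDC9 (IGFBP7), CAPN3 (INSR) and HCN3 (IRS2). The distances are descriptions over 6 libraries that share the 2 groups, and among so many genes some lie close to any pattern.

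Among the other genes of the pathway, 72 were listed from their textbook roles, with earlier results of these data known. Of the 72, 60 were tested, and 12 were called higher and 1 lower (5 and 0 with the replicate number as a block). That is beside 7.11% and 4.98% of all tested genes, and the median log2 fold change was 0.07 beside −0.0020. One gene kept its call among these with Empty 2 and 3 left out, which was IGF2.

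Of the 4 ligand genes 3 were tested and 1 was higher. IGF2, the ligand that IGF2R removes, was at 76.2 ± 4.59 CPM in Empty and 105 ± 3.17 CPM in sgZHX3-3 (SD, n = 3 each), with a log2 fold change of 0.46 (standard error 0.0589, edgeR adjusted p = 0.000492, and from 1.21e-09 to 0.0107 over the other settings). IGF1 had no count in any library, which allows a level of up to 0.0498 to 0.0671 CPM depending on the library (3 counts; counting error only). INS did not pass, with a log2 fold change of 0.19 (standard error 0.0935, adjusted p = 0.219, and from 0.0155 to 0.970 over the other settings), and passed without Empty 1 (0.30). With Empty 2 and 3 left out INS was at −0.01 and IGF2 at 0.56. INS and IGF2 share exons with the readthrough gene INS-IGF2 (0.49, adjusted p = 0.209), so these counts are uncertain. Per kilobase IGF2 stood at 13.0 CPM per kb over the 6 libraries, below IGF2R and IGFBP3.

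Of 18 other binding proteins, related secreted proteins and proteases, 11 were tested, 2 were higher and 0 lower. PAPPA2, the protease that cuts IGFBP3 and IGFBP5, was at 2.35 ± 0.175 CPM in Empty and 4.58 ± 0.654 CPM in sgZHX3-3 (SD, n = 3 each), with a log2 fold change of 0.96 (standard error 0.144, edgeR adjusted p = 0.00127, and from 8.97e-07 to 0.0540 over the other settings). IGFALS, the subunit that joins IGF and IGFBP3 or IGFBP5 in the large complex of blood, was at 11.2 ± 1.19 CPM and 16.7 ± 0.826 CPM (SD, n = 3 each), at a log2 difference of 0.57 (edgeR adjusted p = 0.00178, and from 9.75e-07 to 0.0890). Both lost their call with Empty 2 and 3 left out, at 1.01 and 0.46. PAPPA, the protease of IGFBP4, had 2 counts in all 6 libraries together and was not tested. HTRA1, a secreted protease with an IGFBP-type domain, had 121 counts in all and did not pass, with a log2 fold change of 0.60 (adjusted p = 0.266, and from 0.207 to 0.660 over the other settings).

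Of 16 adaptors and inhibitors at the receptors, 14 were tested, 4 were higher and 1 lower. Beside IRS1 the higher genes were GRB10 and GRB14, adaptors known to inhibit these receptors, and the receptor phosphatase PTPRF. PTPRF was at 235 ± 8.60 CPM in Empty and 296 ± 7.27 CPM in sgZHX3-3 (SD, n = 3 each), at a log2 difference of 0.34 (edgeR adjusted p = 0.00127). On the same scale GRB10 was at 0.60 (adjusted p = 0.0138) and GRB14 at 0.27 (adjusted p = 0.0386), and the docking protein GAB1 was lower at −0.29 (adjusted p = 0.0478). Over the other settings the adjusted p ranged from 4.63e-07 to 0.0890 for PTPRF, from 0.00216 to 0.105 for GRB10, from 0.00981 to 0.487 for GRB14 and from 0.0293 to 0.334 for GAB1. PTPRF lost its call only with Empty 2 and 3 left out, at 0.28. GRB10 lost it without Empty 2 (0.59) or sgZHX3-3 library 2 (0.50), with the replicate number as a block (0.60) and with Empty 2 and 3 left out (0.74). GRB14 lost it when any 1 library other than Empty 1 was left out (0.20 to 0.28), and GAB1 did so too (−0.33 to −0.24). Both also lost it with the replicate number as a block (0.27 and −0.29) and with Empty 2 and 3 left out (0.16 and −0.29), GRB14 with library totals alone (0.23) or the gene span trend removed (0.25), and GAB1 without an expression filter (−0.29).

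The kinases downstream had small values. Of 27 genes of PI3K, AKT and mTOR, 26 were tested, 3 were higher and 0 lower, with all log2 fold changes between −0.15 and 0.25. By log2 fold change the 3 were the translation repressor EIF4EBP1 (0.22, edgeR adjusted p = 0.0288), the mTORC1 subunit RPTOR (0.24, adjusted p = 0.0215) and the PI3K regulatory subunit PIK3R2 (0.25, adjusted p = 0.0480). Over the other settings the adjusted p reached 0.490 for EIF4EBP1, 0.404 for RPTOR and 0.565 for PIK3R2, and none of the 3 passed when Empty 2, Empty 3 or both, or library 2 or 3 of sgZHX3-3, was left out, or with the replicate number as a block (0.22, 0.24 and 0.25). RPTOR was at 0.08 with the gene span trend removed and did not pass. For PIK3R2 the groups overlapped, with 86.4 CPM in Empty 1 and 86.0 CPM in sgZHX3-3 library 1. PIK3R2 did not pass with library totals alone (0.22), the filter of at least 1 CPM in 3 libraries (0.25) or limma-voom (0.25). Of 7 FOXO factors and IGF2 mRNA-binding proteins, 6 were tested and 2 were higher: FOXO6 (0.44, adjusted p = 0.00615) and IGF2BP3 (0.23, adjusted p = 0.0274). FOXO6 lost its call with Empty 2 and 3 left out (0.30), and IGF2BP3 in 8 of 15 other settings, among them leaving out any single library other than Empty 1 or sgZHX3-3 library 3. The stress list differed between the groups as given above, and its part in these values was not tested.

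**Figure D5:**
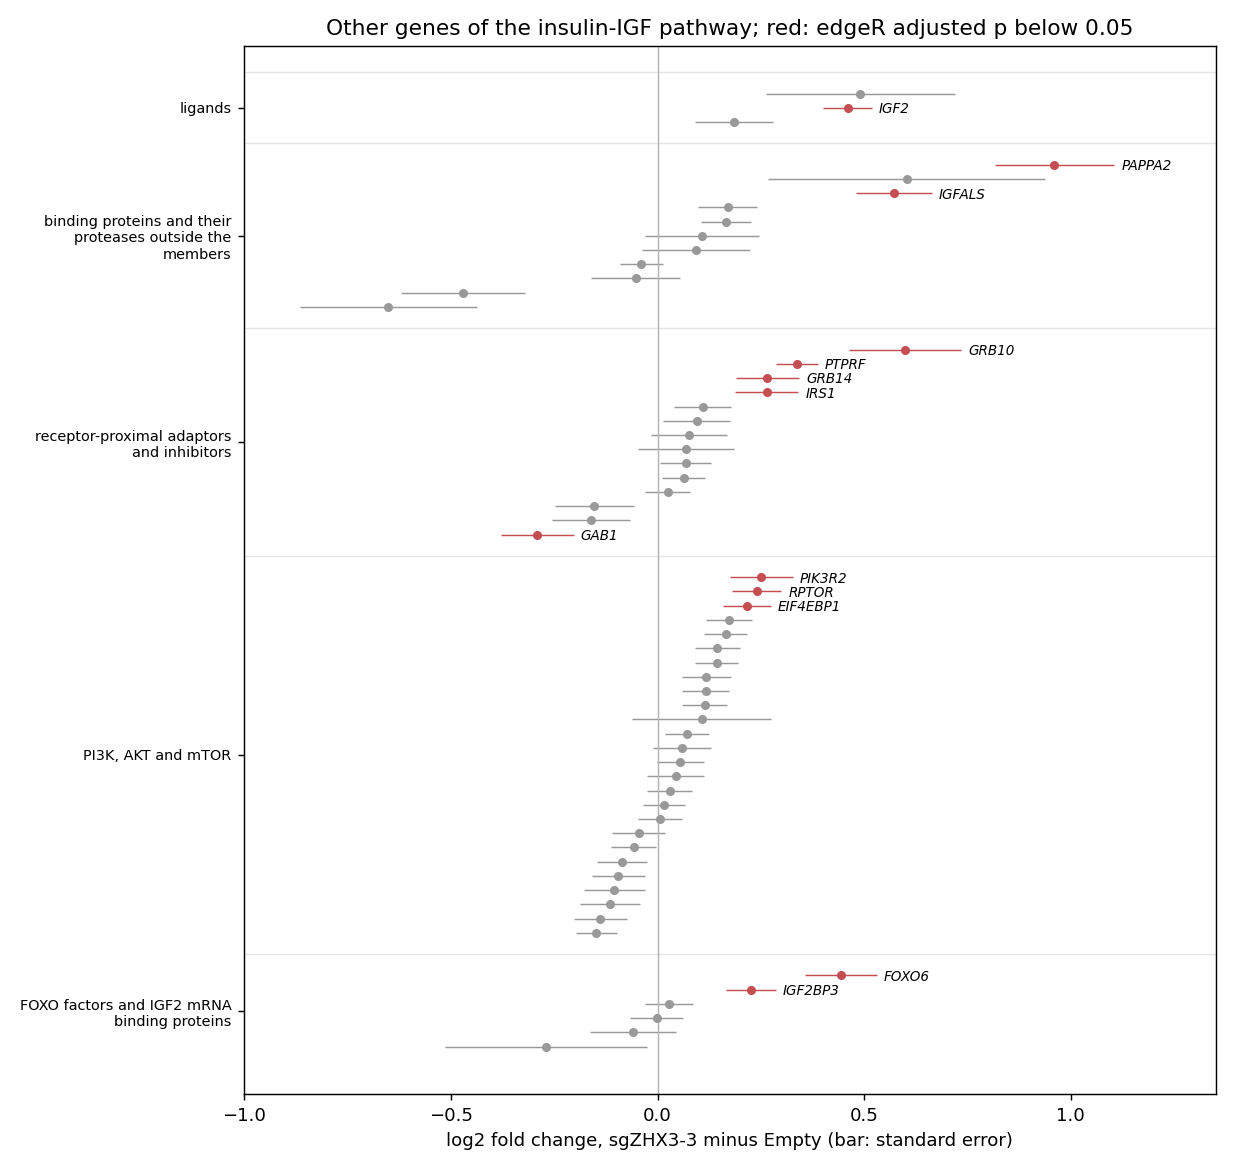
Log2 fold change (x axis, sgZHX3-3 minus Empty) with its standard error for the 60 tested genes of the pathway outside the 10, grouped by role; red points are called by edgeR (adjusted p below 0.05) and grey points are not. Of the 13 called genes 12 lie to the right of 0 and GAB1 to the left, and the PI3K, AKT and mTOR genes lie between −0.15 and 0.25.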

How the data were processed

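RNA from 6 libraries was prepared with a stranded directional kit, per the labels' protocols. The deposited values are raw read counts per gene symbol made by the authors; STAR, featureCounts and hg38 are named in the submitters' processing notes, without versions or strand setting. The table's control columns were matched to the Empty samples by name and letter. Genes were kept by edgeR 4.0.16 filterByExpr (minimum count 10, minimum total 15), scaled by TMM and tested with the robust quasi-likelihood test in R 4.3.3, with Benjamini-Hochberg adjustment over 16199 genes and a threshold of 0.05. Biological variation between replicates (common coefficient) came to 6.91%. The script was tested on simulated data.

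CPM used TMM library sizes. Lengths and positions came from GENCODE 29 (GRCh38), in which 90.2% of 26485 symbols had a gene model. The 10 genes, the pathway and marker lists and the tests were chosen with earlier results of these data known. Named genes are the 10, ZHX3, INS, IGF1, IGF2, IRS1, PAPPA, HTRA1 and IGFBP1, up to 5 called genes with the smallest adjusted p in each pathway list, and the nearest gene to each of the 10. INS-IGF2 was added after its values were seen. Alternatives were other scalings and filters, DESeq2 1.42.0, limma-voom (limma 3.58.1), a replicate block, leaving out libraries, and removal of a trend with gene span.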

Additional observations from a re-analysis of the deposited data

How the results depend on the processing

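Of all genes 1151 were higher and 807 lower, and of the pathway genes outside the 10, 12 and 1. Scaling by library totals alone gave 904 higher and 1272 lower, with 4 pathway genes lower, at a median log2 fold change over all genes of −0.04. Without an expression filter 0 pathway genes were lower, and with the gene span trend removed 2 were. The fit with the replicate block gave 516 higher and 239 lower, with 5 and 0 in the pathway. With Empty 2 and 3 both left out there were 209 and 40, with 1 and 0 in the pathway; this fit takes the spread of the single remaining Empty library from the other group. Leaving out 1 library at a time gave 474 to 1792 higher and 184 to 1499 lower, and 5 to 15 and 0 to 5 in the pathway. DESeq2 gave 1336 and 967, and limma-voom 1145 and 813. Deviations of same-numbered libraries from their group means had correlations of −0.127, 0.0617 and −0.129. With 3 libraries a group this cannot decide whether the replicate numbers pair the libraries. IGFBP6, with 62 to 132 counts in a library, was the least precise of the 10.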

Other observations

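IGFBPL1, a secreted relative of the IGF binding proteins, stood above the 10 genes in mean level over the 6 libraries per kilobase of joined exons, at 97.2 ± 2.35 CPM per kb in Empty and 94.6 ± 2.73 CPM per kb in sgZHX3-3 (SD, n = 3 each), and its groups overlapped. The place of IGFBP3 depends on the length used, and with the longest transcript IGFBP3 was at 113 CPM per kb. It was chosen after its values were seen.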
